A study of Mus musculus with 12 samples.

Results

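The Wnt pathway genes described here were the 54 symbols, of 28686 in the count table, whose names follow the *Wnt*, *Fzd*, *Sfrp*, *Dkk*, *Lgr* or *Rspo* families, together with *Lrp5*, *Lrp6*, *Axin1*, *Axin2*, *Ctnnb1*, *Tcf7*, *Tcf7l1*, *Tcf7l2*, *Lef1*, *Rnf43*, *Znrf3*, *Wif1* and *Notum*. *Fzd3* and *Fzd6* were left aside by that rule. The members comprised 19 ligands, 10 receptors and co-receptors, 9 genes of the R-spondin axis, 9 secreted antagonists and 7 intracellular components. The rule uses names and not values, though it was set with earlier results of these data known.

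Bulk RNA-seq was performed on cochlear tissue from 12 mice at postnatal day 6. Of these, 6 carried *Sox2*CreER/+*Jag1*fl/fl and are called mutants, and the other 6, *Sox2*+/+ littermates, served as controls. JAG1 is a ligand of the Notch receptors, and the comparison asked what its loss in neonatal supporting cells, the non-sensory cells that surround the hair cells, did to cochlear gene expression. All pups received tamoxifen at P0 and P1, and the labels give the strain as C57BL/6;129SV, whereas the methods name C57bl6/J for the CreER line and FVB/n for the floxed line. Controls lacked the CreER allele, and the breeding scheme in the methods gives them a floxed *Jag1* allele or a pair of them. Mutants carried the inducible recombinase at 1 *Sox2* locus, which drives it in supporting cell subtypes, so the CreER allele and the deletion cannot be told apart in these groups.

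Wnt ligands are secreted lipid-modified proteins that bind frizzled receptors, and in the canonical branch they also engage the co-receptors LRP5 and LRP6, which stabilizes β-catenin and lets it act with TCF and LEF factors on target genes. R-spondins bind LGR receptors and relieve the removal of frizzled receptors by the ubiquitin ligases RNF43 and ZNRF3, whereas secreted frizzled-related proteins, Dickkopf proteins, WIF1 and NOTUM act outside the cell on ligands or receptors. In the neonatal cochlea, Wnt activity is known for its effect on supporting cell division and on the capacity of LGR5-positive supporting cells to give rise to hair cells, and non-canonical Wnt signals orient the hair bundles.

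Total counts ranged from 28498549 to 36134983 per library. The median *Jag1* level was 104 CPM (counts scaled to 1e6 per library) in controls, with a range of 83.0 to 118, and 37.5 CPM in mutants, with a range of 24.2 to 42.9. All 6 mutants lay below every control (log2 fold change -1.48, standard error (SE) 0.13, edgeR adjusted p = 0.000258). *Sox2* had a median of 35.5 CPM in controls and 25.4 CPM in mutants (log2 fold change -0.45, edgeR adjusted p = 0.143). Markers of hair cells were present in every library, with a summed level of 193 to 251 CPM in controls and 197 to 252 CPM in mutants. The tissue also held 12 bone and cartilage markers that summed to 25153 to 33497 CPM in controls and 24958 to 30020 CPM in mutants. Most of that sum came from 2 collagen genes. In controls *Col2a1* had 17246 to 24182 CPM and *Col9a1* 6230 to 8564 CPM, whereas the bone matrix gene *Bglap* had 0.713 to 29.4 CPM. Libraries stood apart in nerve markers: 12 neuronal genes summed to 101 to 248 CPM in controls and 137 to 1294 CPM in mutants, and 11 Schwann cell genes to 461 to 1439 CPM in controls and 1192 to 6272 CPM in mutants, with mutants 1, 2 and 4 highest for neurons and mutants 1 and 2 highest for Schwann cells. At an unadjusted p under 0.05, 11 of the 12 neuronal and 10 of the 11 Schwann cell markers were higher in mutants, and none of these markers was at 0.

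No Wnt pathway member passed the threshold of an adjusted p of 0.05 between mutants and controls (edgeR quasi-likelihood test, Benjamini-Hochberg adjustment over 18459 genes), against 35 genes, or 0.190%, of all genes tested. DESeq2 called 4 members, which were *Fzd7*, *Lrp5*, *Sfrp2* and *Sfrp5* with DESeq2 adjusted p of 0.00514, 0.00921, 0.0468 and 0.0164, and limma-voom called 0. Those 4 are 8.33% of the members tested, where DESeq2 called 3.35% of all tested genes. At an unadjusted p under 0.05 by edgeR, 10 of the 48 members tested were lower in mutants, or 20.8%, where the share of all tested genes was 4.04%, and 1 member, *Sfrp5*, was higher, or 2.08% against 6.52% of all tested genes. Among the members, 38 of 48 had a log2 fold change below 0, or 79.2% against 49.1% of all tested genes. Their median was -0.08 beside a median of 0.00 over all tested genes. Several lists of cell markers leaned the same way. Below 0 were 7 of 9 supporting cell, 7 of 9 stria vascularis and 6 of 7 endothelial markers, with medians of -0.10, -0.10 and -0.09. For dividing cells it was 3 of 7 and for neurons 1 of 12. Most differences were small, since 34 of the 48 members lay within 0.2 of 0 on the log2 scale. In these bulk samples, fewer cells of a type and less RNA per cell cannot be told apart. By microscopy at P6, the paper reports a large loss of Hensen's cells, a supporting cell type, in these mutants. It found similar numbers of inner and outer hair cells and no significant difference in spiral ganglion neurons per area. The part of that loss in the members' values was not tested.

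The roles were not tested against each other, and their counts are given side by side. Of all tested genes, 4.04% were lower at an unadjusted p under 0.05 and 49.1% had a fold change below 0. Of the 10 receptors and co-receptors, 5 were lower at an unadjusted p under 0.05 and 9 had a negative fold change, with a median of -0.16. Of 14 ligands tested 1 was lower at that level (7.14%), of 8 R-spondin axis genes 1 (12.5%), of 9 antagonists 3 (33.3%), and of 7 intracellular components 0. Fold changes were below 0 for 10 of the 14 ligands (median -0.09), 4 of the 8 R-spondin axis genes (median 0.01), 8 of the 9 antagonists (median -0.20) and 7 of the 7 intracellular components (median -0.06). The groups of mice did not overlap for 2 members, *Fzd7* and *Lrp5*, both lower in mutants, which is 4.17% of the members tested and 0.379% of all tested genes. No member had every mutant above the highest control, compared with 0.618% of all tested genes.

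**Figure D1:**
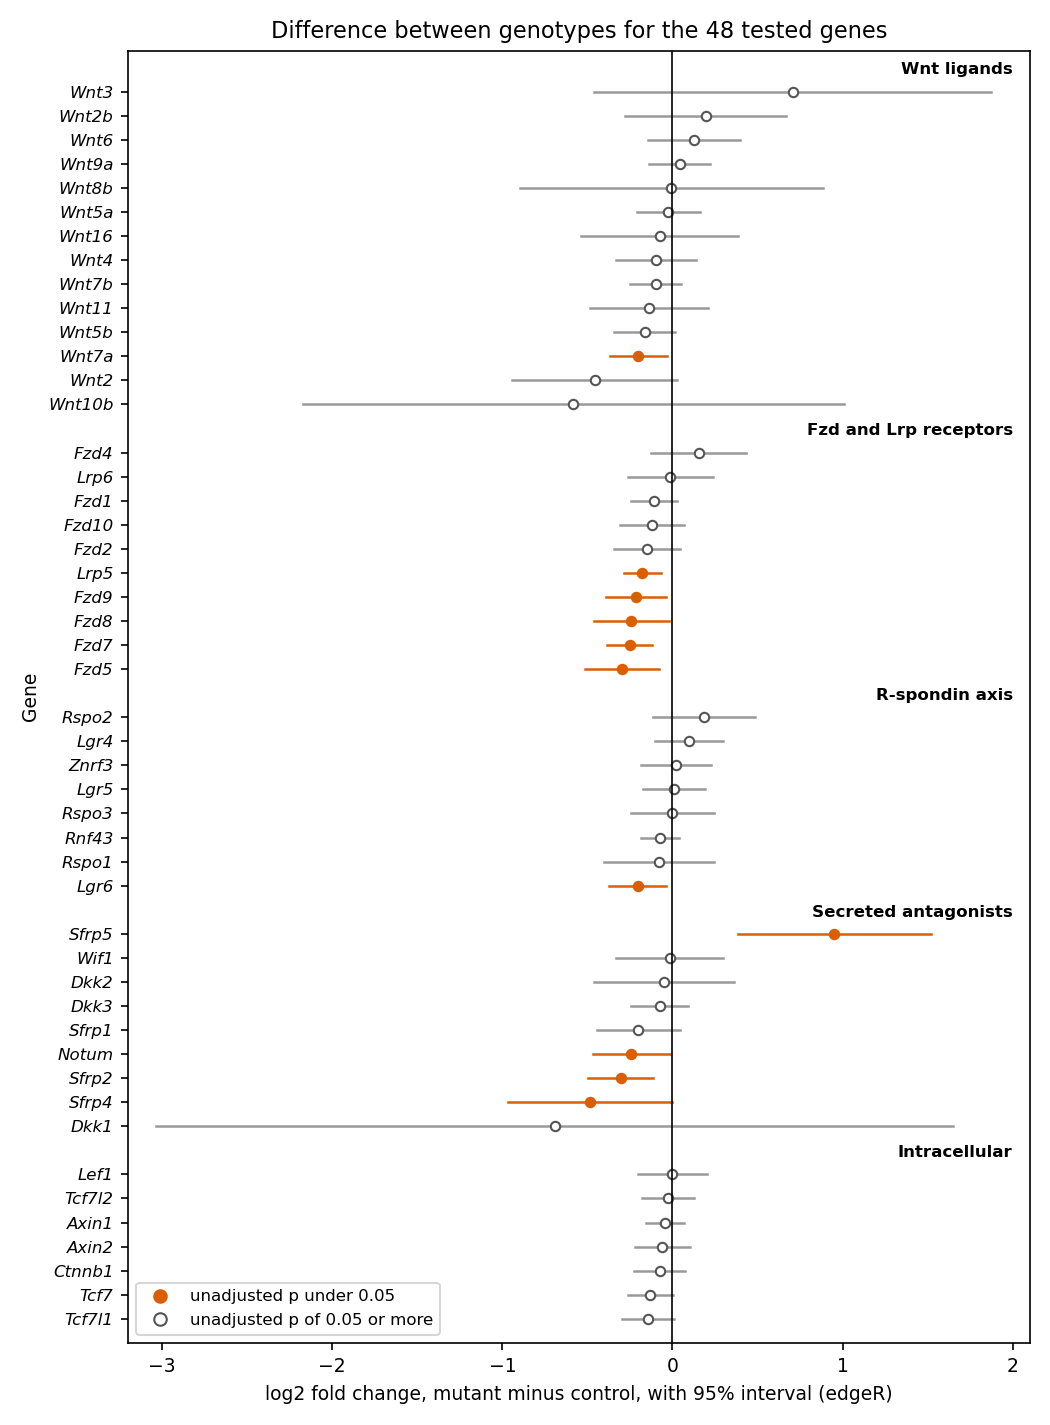
Log2 fold change (x axis, mutant minus control) of each of the 48 tested Wnt pathway genes (y axis, grouped by role), with points for the edgeR estimate from 6 mutant and 6 control mice, bars for its 95% interval and orange for an unadjusted p under 0.05. The estimate was below 0 for 38 genes, 10 of the 11 orange points lie to the left of 0, and *Sfrp5* at 0.95 lies to the right.

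The promoters are shown for the member with the smallest p among those lower in mutants, *Fzd7*, for the member with the smallest p among those higher, *Sfrp5*, and for *Lgr6*, which is the member lower at an unadjusted p under 0.05 with a match to the binding core of RBPJ, the DNA-binding factor of the Notch pathway. Each is the 250 bases before a RefSeq transcription start (GRCm38.p6), written 5′ to 3′ on the gene's strand, with motif matches in capitals. They lie at chr1:59481897-59482146 (+ strand) for *Fzd7*, chr19:42202253-42202502 (- strand) for *Sfrp5* and chr1:135105277-135105526 (- strand) for *Lgr6*.
Fzd7: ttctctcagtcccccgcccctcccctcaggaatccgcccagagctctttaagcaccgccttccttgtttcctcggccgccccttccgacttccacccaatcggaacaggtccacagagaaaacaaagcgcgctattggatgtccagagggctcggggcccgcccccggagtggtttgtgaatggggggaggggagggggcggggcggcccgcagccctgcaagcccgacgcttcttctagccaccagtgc
Sfrp5: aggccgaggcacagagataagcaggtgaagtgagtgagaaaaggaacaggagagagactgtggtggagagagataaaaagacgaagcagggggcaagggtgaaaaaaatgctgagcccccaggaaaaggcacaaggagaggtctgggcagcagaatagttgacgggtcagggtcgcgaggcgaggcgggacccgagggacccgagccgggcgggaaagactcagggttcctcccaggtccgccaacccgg
Lgr6: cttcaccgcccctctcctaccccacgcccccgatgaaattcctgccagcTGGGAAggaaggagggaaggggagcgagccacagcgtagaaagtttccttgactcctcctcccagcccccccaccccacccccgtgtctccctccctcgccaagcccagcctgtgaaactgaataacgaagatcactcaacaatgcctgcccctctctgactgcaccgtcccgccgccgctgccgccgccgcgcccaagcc
The RBPJ core was searched as TGGGAA on both strands, and the TCF and LEF core as CTTTGA on both strands, and the letters of these motifs do not overlap in the promoters shown. The *Fzd7* and *Sfrp5* promoters held 0 matches to either core and the *Lgr6* promoter held 1 RBPJ match. RefSeq promoters were found for 37 members, 47 promoters in all, of which 5 held the RBPJ core, or 10.6%, compared with 21.6% of 32851 promoters of the same length. The members concerned were *Lgr6*, *Tcf7l1*, *Wnt3*, *Wnt5b* and *Wnt9a*. The TCF and LEF core occurred in 5 of the 47 promoters, or 10.6%, compared with 13.8% of all promoters, and belonged to *Dkk1*, *Fzd1*, *Lef1*, *Wnt11* and *Wnt5b*. *Lef1*, which encodes one of the factors that reads the TCF and LEF core, held 2 matches before an internal start at chr3:131156044-131156293 (+ strand), shown here because it was the promoter with the matches in a readout gene of the pathway.
Lef1: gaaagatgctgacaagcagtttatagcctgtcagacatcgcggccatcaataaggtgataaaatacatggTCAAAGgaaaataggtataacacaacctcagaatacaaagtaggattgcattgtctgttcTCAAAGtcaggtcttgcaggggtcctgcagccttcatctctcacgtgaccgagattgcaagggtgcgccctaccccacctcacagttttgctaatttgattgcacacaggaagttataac
These matches describe the letters of the windows only.

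Among the receptors, *Fzd9* had the highest level per length, 75.6 ± 9.35 CPM per kb (SD, n = 6 controls), and made up 43.3% of the summed frizzled level in controls. *Fzd7* contributed 17.1%. The order of control levels per length after *Fzd9* was *Fzd7* at 29.8 CPM per kb, *Fzd1* at 26.5, *Lrp6* at 20.6, *Fzd2* at 18.4, *Lrp5* at 15.6, *Fzd10* at 13.4, *Fzd4* at 5.67, *Fzd8* at 3.49 and *Fzd5* at 1.71 CPM per kb. Neighbours from *Lrp6* to *Fzd2* differed by less than the SD of *Lrp6*, which was 2.74 CPM per kb. The summed level of the 8 frizzled genes had a median of 170 CPM per kb in controls, ranging from 164 to 192, and of 153 CPM per kb in mutants, ranging from 144 to 165. In 5 of 6 mutants this sum lay below the lowest control. No test was made of these sums.

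*Fzd7* (chr1:59482424-59486955, GRCm38), a frizzled receptor used by canonical ligands, was measured at 127 CPM in the lowest control, 131 at the median and 149 in the highest, and at 105, 113 and 124 CPM in mutants. Every mutant was below every control. The fold was 0.840 (95% interval 0.766 to 0.922), or -0.25 as a log2 fold change, SE 0.06, with edgeR adjusted p = 0.0954. Without mutant 5 its edgeR adjusted p was 0.0442, in a fit that called 1.93% of all tested genes. With the neuron and Schwann cell marker levels as covariates its log2 fold change was -0.13.

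*Lrp5* (chr19:3584828-3686564), a co-receptor of the canonical branch, ranged from 141 to 159.5 CPM in controls with a median of 156, and from 127 to 139 CPM in mutants with a median of 136. These ranges were separate. Its fold was 0.885 (95% interval 0.820 to 0.955), or -0.18 as a log2 fold change, SE 0.05, with edgeR adjusted p = 0.142. *Lrp6*, the paralogous co-receptor, ranged from 221 to 318 CPM in controls and 192 to 303 CPM in mutants, with medians of 296 and 298. Of the mutants 5 lay within the control range, and the fold was 0.992 (95% interval 0.835 to 1.18). The interval for *Lrp6* contained the fold of *Lrp5*, and whether both co-receptors differed from each other in their response was not tested.

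*Fzd5*, a receptor expressed at a low level here, had 10.3, 11.6 and 14.1 CPM as the lowest, median and highest control and 7.54, 9.87 and 10.6 CPM in mutants. All mutants lay below the control median and 4 below the lowest control (log2 fold change -0.29, SE 0.10, edgeR adjusted p = 0.240). A stretch covering 17.8% of its exon length is shared with *Gm38058* on the opposite strand, and the strand setting of the counting is not given in the sources used here. *Fzd9* ranged from 149 to 203 CPM in controls with a median of 170.3, and from 135 to 165 CPM in mutants with a median of 146. Of the mutants, 4 were below the lowest control and 6 below the control median (log2 fold change -0.21, SE 0.08, edgeR adjusted p = 0.333). *Fzd8*, another frizzled receptor, gave 16.5, 21.2 and 24.2 CPM in controls and 14.3, 18.1 and 20.1 CPM in mutants. All 6 mutants were below its control median, though only 2 left the control range (log2 fold change -0.24, SE 0.10, edgeR adjusted p = 0.400).

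For the other frizzled genes the groups overlapped, with 3 of 6 mutants below the lowest control for *Fzd1* and for *Fzd2* and 2 for *Fzd10*. *Fzd1*, *Fzd2* and *Fzd10* had log2 fold changes of -0.11, -0.15 and -0.12, with edgeR adjusted p of 0.607, 0.657 and 0.735. *Fzd4*, the receptor for the non-Wnt ligand norrin, was the receptor with a positive value, at 31.4 to 45.0 CPM in controls and 27.3 to 49.0 CPM in mutants (log2 fold change 0.15, edgeR adjusted p = 0.798). For this gene 3 mutants were above the highest control and 1 below the lowest. Its lowest mutant, mutant 1, was also the lowest mutant for *Fzd5* and *Lrp6*. Across the 10 receptors the GC content of the longest transcript ran from 46.0% to 62.2%, and its Spearman correlation with the log2 fold change was -0.18 across these genes, which share the same libraries.

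**Figure D2:**
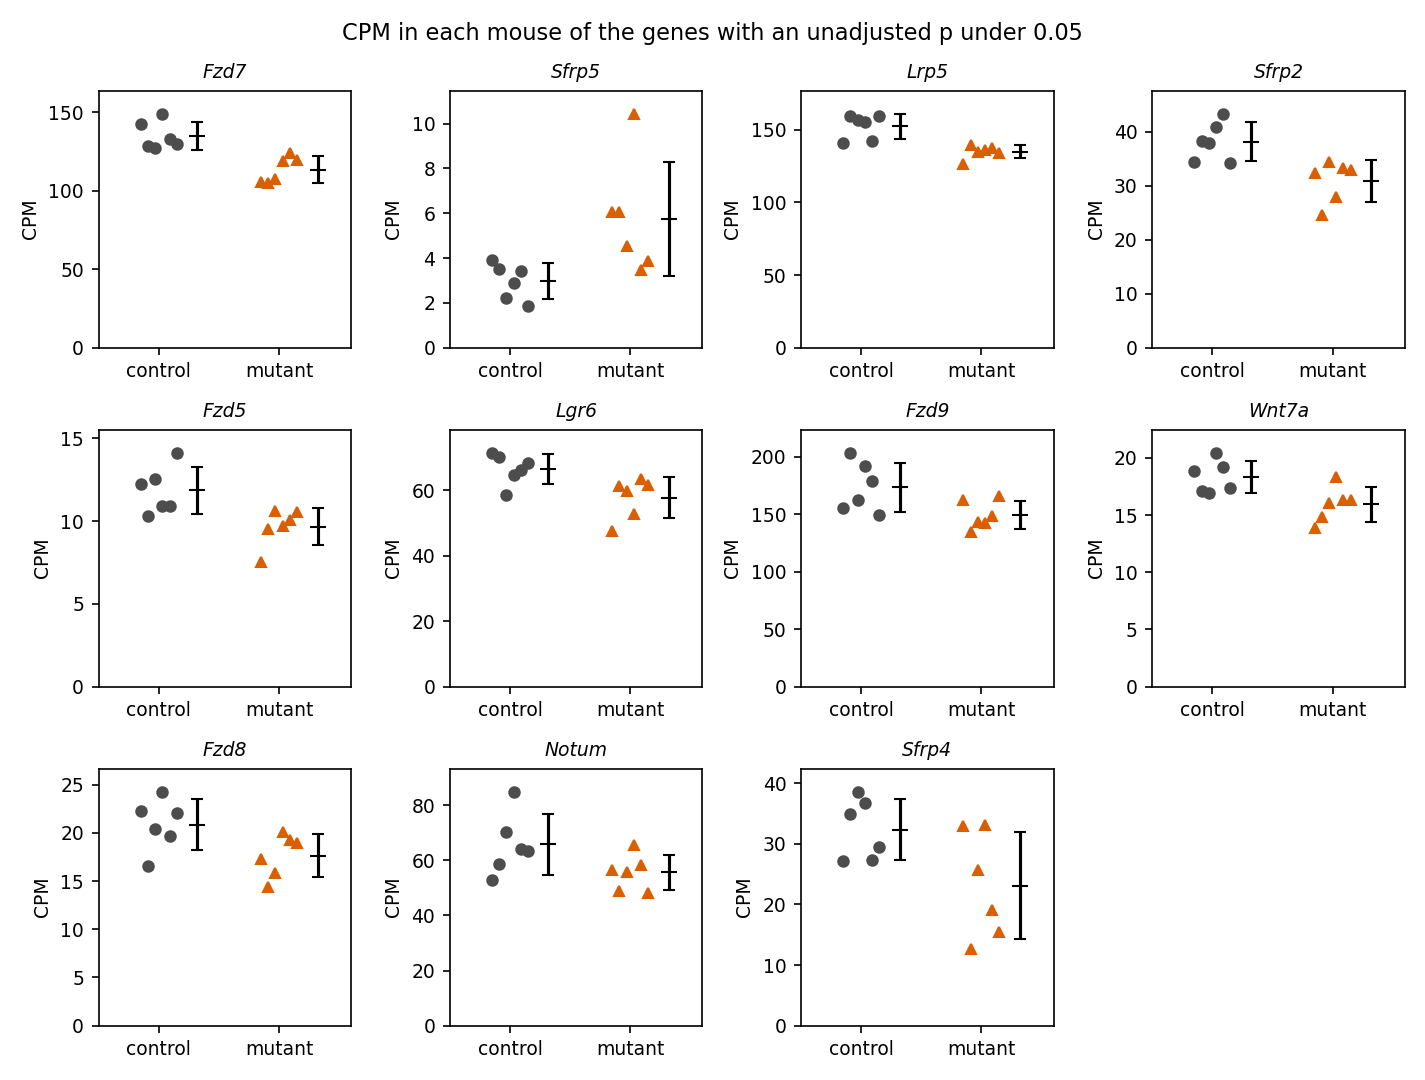
Level in CPM (y axis from 0) of the 11 members with an unadjusted p under 0.05 in each of 6 control and 6 mutant mice (points), with the group mean and SD as bars. For *Fzd7* and *Lrp5* every mutant sits below the lowest control, at 127 and 141 CPM, whereas for *Sfrp5* 4 mutants sit above the highest control, at 3.92 CPM.

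Secreted antagonists held both the highest positive log2 fold change among the members, 0.95 for *Sfrp5*, and the most negative, -0.69 for *Dkk1*. The *Dkk1* value had an SE of 1.07, wider than the difference itself. Per length, *Sfrp1* at 67.5 ± 11.0 CPM per kb (SD, n = 6 controls) and *Dkk3* at 50.0 ± 4.89 CPM per kb led, followed by *Wif1* at 29.7, *Notum* at 27.3, *Sfrp2* at 17.7, *Dkk2* at 12.3, *Sfrp4* at 7.74, *Sfrp5* at 1.56 and *Dkk1* at 0.506 CPM per kb. *Wif1* and *Notum* differed by less than the SD of either.

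*Sfrp5* (chr19:42197971-42202252), a secreted frizzled-related protein that binds Wnt ligands, was scarce at 1.86, 3.14 and 3.92 CPM as the lowest, median and highest control, and stood at 3.45, 5.28 and 10.4 CPM in mutants. In all 6 mutants it exceeded the control median, and in 4 it exceeded the highest control. The fold was 1.93 (95% interval 1.31 to 2.86), and on the log2 scale the difference was 0.95, SE 0.26, with edgeR adjusted p = 0.127. Among mutants, mutant 4 was highest for *Sfrp5* and for the neuronal marker sum, at 10.4 and 1294 CPM. Mutant 5 was lowest among mutants for both, at 3.45 and 137 CPM. Mutant 4 nevertheless had the lowest Schwann cell marker sum of the mutants, 1192 CPM. Control 6, the lowest control for *Sfrp5* at 1.86 CPM, had a neuronal sum of 142 CPM, above the control median of 138 CPM. Setting *Sfrp5* beside the neuronal list was not a planned comparison. With the nerve marker levels as covariates the log2 fold change of *Sfrp5* was 0.27, and without mutants 1, 2 and 4 it was 0.42. The part of nerve tissue in the *Sfrp5* value was not tested otherwise.

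*Sfrp2* (chr3:83766321-83774316) ranged from 34.2 to 43.3 CPM in controls with a median of 38.1, and from 24.5 to 34.4 CPM in mutants with a median of 32.7. The ranges met at a single mutant, and the other 5 were below the lowest control. Its log2 fold change was -0.31, SE 0.09, with edgeR adjusted p = 0.143 and a fold of 0.809 (95% interval 0.709 to 0.924). Opposite-strand sequence of *Gm26771* overlapped 16.1% of its exon length. *Sfrp4*, a family member known from bone and connective tissue, had 27.1, 32.1 and 38.5 CPM in controls and spread further in mutants, at 12.6, 22.3 and 33.0 CPM. Of its mutants 4 lay below the lowest control (log2 fold change -0.49, SE 0.22, edgeR adjusted p = 0.467). Markers of mesenchyme were also lower in the same direction: 10 of 10 had a log2 fold change below 0, with a median of -0.13, 1 of them at an unadjusted p under 0.05, and summed levels of 9711 to 11861 CPM in controls and 9110 to 10768 CPM in mutants. Of 12 bone and cartilage markers, 11 were below 0, with the same median of -0.13. Of all tested genes, 49.1% were below 0 and 4.04% were lower at an unadjusted p under 0.05. This direction was shared by 9 of 9 macrophage, 7 of 9 supporting cell, 7 of 9 stria vascularis and 6 of 7 endothelial markers. The part of these tissues in the antagonists' values was not tested.

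*Notum*, a carboxylesterase that removes the lipid from Wnt proteins and is itself a feedback target, gave 52.9, 63.8 and 84.8 CPM in controls and 48.2, 56.2 and 65.6 CPM in mutants. Its groups overlapped, with 2 mutants below the lowest control (log2 fold change -0.24, SE 0.11, edgeR adjusted p = 0.424). *Notumos* and *Myadml2os* on the opposite strand overlap 38.1% of its exon length, and its log2 fold change was 0.06 with the nerve marker levels as covariates. *Sfrp1*, the most abundant antagonist per length, ranged from 236 to 355 CPM in controls and from 217 to 311 CPM in mutants, with medians of 304 and 257. The SE of its log2 fold change of -0.20 was 0.11 (edgeR adjusted p = 0.610). *Dkk3*, a divergent Dickkopf family member, had medians of 173 CPM in controls, ranging from 147 to 186, and 159.8 CPM in mutants, ranging from 139 to 184. The intervals of both reached past no difference, with folds of 0.735 to 1.03 for *Sfrp1* and 0.844 to 1.07 for *Dkk3*.

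*Dkk1*, the canonical antagonist of the LRP co-receptors, was too uneven to compare, at 0.107 to 4.76 CPM in controls and 0.0273 to 3.15 CPM in mutants, with 1 to 164 counts per library. Its fold change carried an SE of 1.07 on the log2 scale. The highest *Dkk1* libraries were control 6 and mutant 6, which were also highest in their genotype for the bone matrix gene *Bglap*, at 29.4 and 17.9 CPM. That gene was singled out after its values were seen. *Dkk2* and *Wif1* had fitted folds of 0.967 and 0.989 with intervals of 0.726 to 1.29 and 0.794 to 1.23.

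The ligands were led by *Wnt5a*, a mostly non-canonical ligand, at 66.9 ± 6.17 CPM per kb (SD, n = 6 controls), or 59.9% of the summed level of the 19 *Wnt* genes. *Wnt7b* followed at 11.1 CPM per kb, with *Wnt9a* at 8.11, *Wnt4* at 7.04, *Wnt7a* at 5.78, *Wnt5b* at 5.52, *Wnt2b* at 3.43 and *Wnt6* at 2.05 CPM per kb. *Wnt7a* and *Wnt5b* differed by less than the SD of either. *Wnt16*, *Wnt2*, *Wnt11*, *Wnt8b*, *Wnt10b* and *Wnt3* were measured between 0.0864 and 0.609 CPM per kb. *Wnt1*, *Wnt3a*, *Wnt8a*, *Wnt9b* and *Wnt10a*, and the R-spondin gene *Rspo4*, had at most 5 counts in any library and fell under the minimum mean count of 5. These 6 genes were not tested and differences in them were not detectable at this depth.

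**Figure D3:**
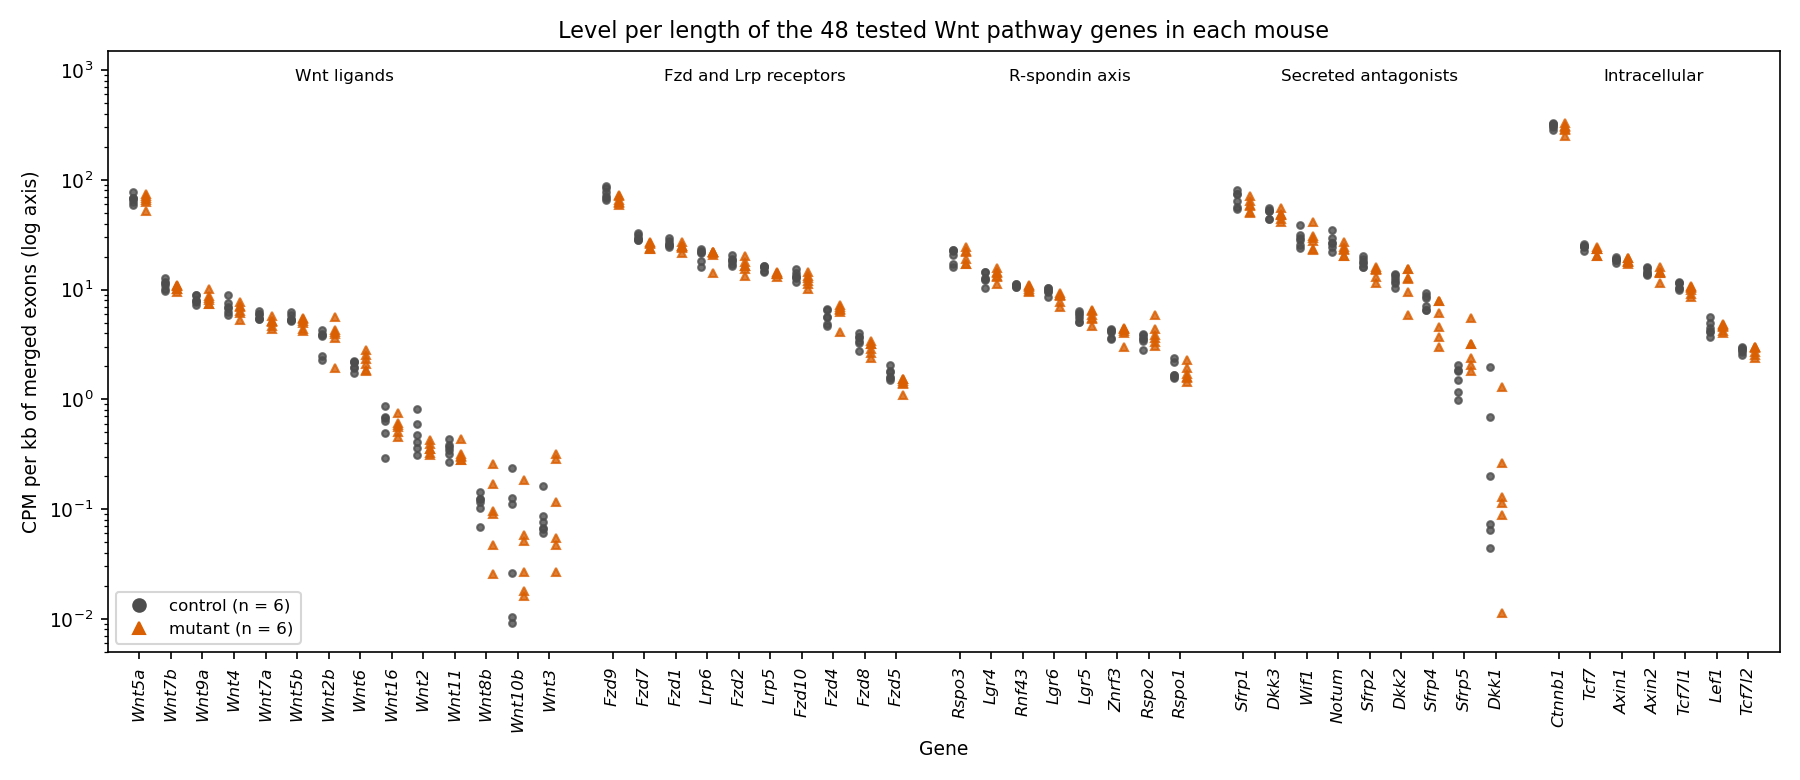
Level per length (y axis, CPM per kb of merged exons, log axis) of the 48 tested members by role, with 1 point for each of 6 control and 6 mutant mice. *Ctnnb1*, with a control mean of 311 CPM per kb, was the highest member, *Fzd9*, *Sfrp1* and *Wnt5a* at 75.6, 67.5 and 66.9 CPM per kb led the receptors, antagonists and ligands, and *Dkk1*, *Wnt10b* and *Wnt3* show the widest spread between mice.

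*Wnt5a* was near level between genotypes, at 459, 529 and 602 CPM in controls and 410.2, 525 and 576 CPM in mutants. The ranges overlapped over most of their extent. The fold was 0.983, with a 95% interval of 0.864 to 1.12. *Wnt7b*, a ligand of the canonical branch in many epithelia, ranged from 47.5 to 62.8 CPM in controls and 46.7 to 53.6 CPM in mutants, with a fold of 0.933 (95% interval 0.840 to 1.04). *Wnt7a*, known in the cochlear epithelium, was the ligand with an unadjusted p under 0.05. It gave 17.0, 18.1 and 20.4 CPM in controls and 13.9, 16.2 and 18.3 CPM in mutants, and 5 of 6 mutants lay below the lowest control. Its log2 fold change was -0.20, SE 0.08 (edgeR adjusted p = 0.335), and it was -0.07 with the nerve marker levels as covariates.

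*Wnt3*, a canonical ligand, had the largest fold change of the ligands but few counts, from 3 to 32 per library. Its level was 0.187, 0.219 and 0.499 CPM in controls and 0.0820, 0.263 and 0.981 CPM in mutants, so mutants lay on both sides of the controls (log2 fold change 0.71, SE 0.55, edgeR adjusted p = 0.769). The highest *Wnt3* values were in mutants 1 and 2, which had the highest Schwann cell marker sums, 6272 and 4772 CPM, and control 1 was the highest control for both. Mutant 4, with the highest neuronal marker sum at 1294 CPM, had *Wnt3* at 0.146 CPM. Setting *Wnt3* beside the Schwann cell list was not a planned comparison. With the neuron and Schwann cell marker levels as covariates the log2 fold change was -1.62, so the direction of *Wnt3* rested on that choice. *Wnt10b*, named after its values were seen, was as uneven, with an SE of 0.74 and 1 to 28 counts per library.

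**Figure D4:**
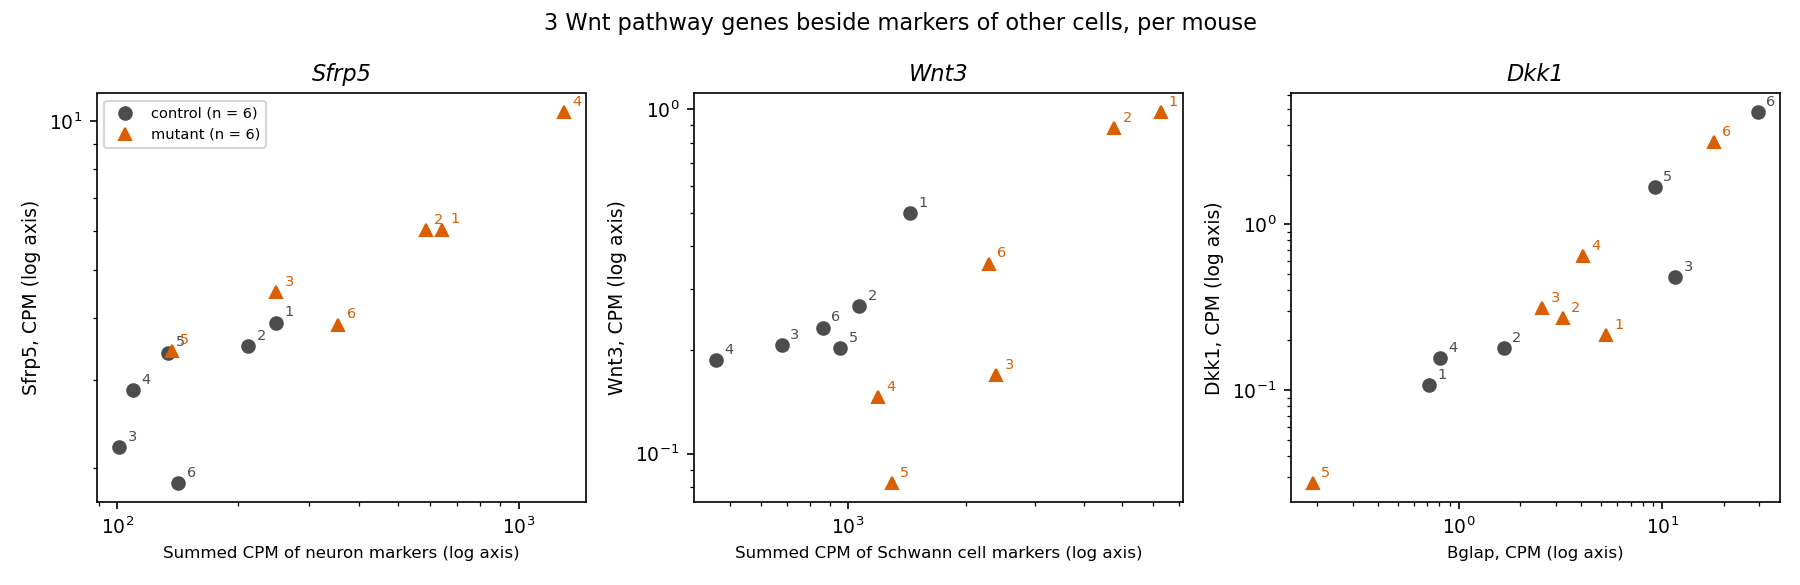
*Sfrp5*, *Wnt3* and *Dkk1* (y axes, CPM, log axes) in each of 6 control and 6 mutant mice, numbered by replicate, against the summed CPM of 12 neuron markers, of 11 Schwann cell markers and the CPM of *Bglap* (x axes, log axes). Mutant 4 is highest for *Sfrp5* and the neuron sum, at 10.4 and 1294 CPM, mutant 1 for *Wnt3* and the Schwann cell sum, at 0.981 and 6272 CPM, and control 6 for *Dkk1* and *Bglap*, at 4.76 and 29.4 CPM. The pairings of gene and markers were not planned comparisons.

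In the R-spondin axis, *Rspo3*, the leading R-spondin with 79.0% of the summed level of the 4 genes, was level between genotypes. It ranged from 49.3 to 70.7 CPM in controls and from 52.4 to 75.4 CPM in mutants, with medians of 66.7 and 63.4. The log2 fold change was 0.00, with a 95% interval of the fold of 0.843 to 1.19. *Rspo2* and *Rspo1*, further ligands of the LGR receptors at 3.54 and 1.85 CPM per kb in controls, gave log2 fold changes of 0.19 and -0.08, with edgeR adjusted p of 0.762 and 0.932.

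Of the 3 LGR receptors, *Lgr4* had the highest control level per length at 12.7 CPM per kb, followed by *Lgr6* at 9.71 and *Lgr5* at 5.68 CPM per kb. *Lgr5*, which marks a subset of cochlear supporting cells and is itself a Wnt target, gave 52.4, 58.9 and 65.1 CPM in controls and 48.2, 58.1 and 67.2 CPM in mutants. Mutants lay on both sides of the control range, with 2 above it and 1 below it, and the fold was 1.01 (95% interval 0.888 to 1.14). *Lgr6*, restricted in the neonatal cochlea to a smaller set of supporting cells, gave 58.5, 67.2 and 71.4 CPM in controls and 47.4, 60.6 and 63.4 CPM in mutants. All 6 mutants were below its control median and 2 below the lowest control (log2 fold change -0.21, SE 0.08, edgeR adjusted p = 0.304). *Lgr4*, the broadly expressed receptor, ranged from 60.4 to 84.9 CPM in controls and 65.5 to 92.8 CPM in mutants, with a fold of 1.07 (95% interval 0.932 to 1.23). A difference between the responses of *Lgr5* and *Lgr6* was not tested. The ubiquitin ligases *Rnf43* and *Znrf3*, at 10.8 and 4.01 CPM per kb in controls, had log2 fold changes of -0.07 and 0.02, with edgeR adjusted p of 0.733 and 0.980. Beside these values, 9 supporting cell markers summed to 2335 to 2614 CPM in controls and 1979 to 2479 CPM in mutants. Of that sum, *Gjb2* alone gave 1200 to 1459 CPM in controls and 1020 to 1411 CPM in mutants. At an unadjusted p under 0.05, 2 of the 9 were lower and 0 higher. The 2 were *S100a1* and *Sox2*, and the *Sox2* locus carries the CreER allele in mutants. The part of supporting cells in the *Lgr6* value was not tested.

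None of the 7 intracellular components had an unadjusted p under 0.05. Their control levels per length were 311 CPM per kb for *Ctnnb1*, 24.6 for *Tcf7*, 18.8 for *Axin1*, 14.7 for *Axin2*, 10.9 for *Tcf7l1*, 4.52 for *Lef1* and 2.81 CPM per kb for *Tcf7l2*. *Ctnnb1*, which encodes β-catenin, ranged from 1476 to 1699 CPM in controls and from 1308 to 1696 CPM in mutants, with medians of 1635 and 1540.1. Its fold was 0.949 (95% interval 0.855 to 1.05), and 15.1% of its exon length overlaps other genes. *Axin2*, the feedback inhibitor widely used as a readout of canonical activity, gave 75.5, 80.0 and 87.9 CPM in controls and 62.7, 79.0 and 88.3 CPM in mutants. The groups overlapped fully at the top, and the fold was 0.959 (95% interval 0.858 to 1.07). *Lef1*, a transcription factor and target, ranged from 32.5 to 49.9 CPM in controls and 35.3 to 43.1 CPM in mutants, with a fold of 0.999 (95% interval 0.867 to 1.15). For *Lef1*, 13.7% of the exon length is shared with *Gm43352*.

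*Tcf7*, which encodes TCF1, lay below the control median in all 6 mutants, at 58.5, 65.2 and 68.2 CPM in controls and 53.3, 61.0 and 63.8 CPM in mutants (log2 fold change -0.13, SE 0.06, edgeR adjusted p = 0.483). *Tcf7l1*, which encodes the mostly repressive TCF3, followed the same arrangement, at 39.0, 42.7 and 46.5 CPM in controls and 33.3, 39.4 and 42.0 CPM in mutants. All 6 mutants were below its control median as well (log2 fold change -0.15, SE 0.07, edgeR adjusted p = 0.497). *Axin1* and *Tcf7l2* had log2 fold changes of -0.04 and -0.02. All 7 intracellular members had a fold change below 0, where 49.1% of all tested genes did, and their median was -0.06.

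A separate list of 50 tested Wnt pathway genes outside the membership, such as Wnt secretion factors, further receptors, intracellular regulators and targets, showed a smaller shift of its median, at -0.04. Of these 50, 36 were below 0, or 72% against 49.1% of all tested genes. None passed the adjusted threshold by edgeR and DESeq2 called 2, *Kremen1* and *Sostdc1*, or 4.00% of the list against 3.35% of all tested genes. At an unadjusted p under 0.05 there were 2 higher, or 4% against 6.52% of all tested genes, and 4 lower, or 8% against 4.04%. *Sostdc1*, a secreted BMP and Wnt antagonist, gave 11.6, 14.5 and 16.5 CPM in controls and 14.9, 19.9 and 23.1 CPM in mutants, with 5 mutants above the highest control (log2 fold change 0.41, SE 0.11, edgeR adjusted p = 0.112). With the nerve marker levels as covariates its log2 fold change was 0.06. *Porcn*, which adds the lipid to Wnt proteins, ranged from 14.3 to 18.7 CPM in controls and 15.5 to 20.5 CPM in mutants (log2 fold change 0.18, edgeR adjusted p = 0.469). The lower 4 were *Dact2*, an intracellular regulator, at -0.27, the non-canonical receptor *Ror2* at -0.32, the Dickkopf co-receptor *Kremen1* at -0.17 and the cell cycle target *Ccnd1* at -0.26, with edgeR adjusted p from 0.193 to 0.422.

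The count of members lower at an unadjusted p under 0.05 changed when libraries were left out and when nerve marker covariates were added. It was 6 of 48, with 3.63% of all tested genes lower, when mutants 1, 2 and 4 were left out, a choice made after the data were seen, and 5 of those 6 were among the original 10. When single mice were left out it ran from 5 without control 4, with 3.10% of all tested genes lower, to 13 without mutant 1, with 6.10% of all tested genes lower. With the neuron and Schwann cell marker levels as covariates 0 of the original 10 had an unadjusted p under 0.05, and the 1 member lower at that level was *Wnt3*, with 1.49% of all tested genes lower. Those marker levels themselves differed between genotypes, so nerve markers and genotype cannot be told apart in that fit. It called 1 of all tested genes, where the main fit called 35. The 1 member higher in that fit was *Wnt4*, and without mutants 1, 2 and 4 it was *Dkk2*, so *Sfrp5* passed that level in neither, and *Wnt4* and *Dkk2* are named after their values were seen. Under the covariates 29 of 48 members had a fold change below 0. The receptors had 6 of 10 below 0 in that fit. Among the original 10, values moved towards 0 to different degrees, to -0.12 for *Lrp5*, -0.17 for *Fzd5*, -0.17 for *Fzd9*, -0.05 for *Fzd8*, -0.12 for *Sfrp2* and -0.17 for *Lgr6*, while *Sfrp4* was at -0.50. Other members moved both ways. *Dkk3* went from -0.08 to -0.21 and *Lgr5* from 0.01 to 0.14, whereas *Sfrp1* went from -0.20 to -0.04 and *Ctnnb1* from -0.08 to -0.03. The SEs were wider with the covariates than in the main fit. They were 0.09 against 0.05 for *Lrp5* and 0.14 against 0.08 for *Fzd9*. For *Lgr6* they were 0.13 against 0.08, and for *Sfrp4* 0.35 against 0.22. A member could thus lose its unadjusted p under 0.05 without a smaller fold change. Among the other cell types, macrophage markers were also lower in mutants, 5 of 9 at an unadjusted p under 0.05 with a median log2 fold change of -0.24 and summed levels of 324 to 406 CPM in controls and 260.3 to 348 CPM in mutants. Of 7 endothelial markers 1 was lower, and of 9 markers of the stria vascularis and 7 of dividing cells 0 were lower or higher at that level. The part of these cell types in the members' values was not tested.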

How the data were processed

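RNA was purified from cochlear tissue with the RNeasy Micro kit and sequenced as single-end reads. Per the labels, the authors trimmed reads with Trimmomatic 0.32, aligned them to GRCm38.p4 with STAR 2.4.2a and made the deposited read counts per gene symbol with HTSeq 0.9.1. The annotation version and strand setting are not given in the sources used here. A second table with the authors' DESeq2 1.10.1 comparison (mean, fold change, its error and p-values) was not used.

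Mutants were compared with controls by edgeR 4.0.16 in R 4.3.3 (quasi-likelihood test, TMM scaling, robust fit) in 18459 genes whose counts averaged 5 or more across all 12 mice. Benjamini-Hochberg adjustment ran over those genes, with a threshold of 0.05, and all tests were two-sided. CPM are counts over the TMM-scaled total of the tested genes, and CPM per kb divides by merged exon length in GENCODE M21 (GRCm38), where 92.2% of symbols and all 54 members were found. The labels call the libraries biological replicates, and libraries of 1 genotype differed by more than sampling noise (chi-square per degree of freedom of 14.4 to 76.6 over 30 pairs). The tests were checked on simulated counts. Promoters came from RefSeq (GRCm38.p6).

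Alternatives were DESeq2 1.42.0, limma-voom 3.58.1, RLE and upper-quartile scaling, no filter, a higher minimum of 20 counts, a replicate block, nerve marker covariates and leaving out each mouse. The covariates were the mean log2 CPM of the neuron list and of the Schwann cell list in each mouse. The members and gene lists were chosen with earlier results of these data known. Full statistics are given for members at an unadjusted p under 0.05, for the leading 2 by level and the member with the largest fold change in each role, and for *Axin2*, *Lef1*, *Tcf7*, *Notum*, *Lgr5* and *Lgr6*. Genes outside this rule that are given with values, such as *Dkk2*, *Wif1*, *Fzd4* and *Lrp6*, serve to complete a family.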

Additional observations from a re-analysis of the deposited data

Results flagged for a closer look

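Within a genotype, a mouse was set apart from the other 5 for a member in 10 of 96 groups examined (Dixon's test at its 95% critical value), where chance sets apart about 5% of groups. Mutant 1 accounted for 5 of the 10. It was lowest for *Fzd4* at 27.3 CPM (the other mutants 42.4 to 49.0), for *Fzd5* at 7.54 CPM (9.49 to 10.6), for *Lrp6* at 192 CPM (280.2 to 303) and for *Znrf3* at 23.5 CPM (31.4 to 35.0), and highest for *Wnt11* at 1.81 CPM (1.15 to 1.33). Mutant 1 also had the highest Schwann cell marker sum, at 6272 CPM.

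*Dkk1* stood apart in control 6 at 4.76 CPM (the other controls 0.107 to 1.68) and in mutant 6 at 3.15 CPM (the other mutants 0.0273 to 0.643), and *Wnt10b* in mutant 6 at 0.623 CPM (0.0547 to 0.198). *Sfrp5* in mutant 4 was at 10.4 CPM (3.45 to 6.04). *Wnt3* in control 1 was at 0.499 CPM (0.187 to 0.268).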

How the results depend on the processing

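Depth limited the 6 members under the count minimum. The intervals of *Dkk1*, *Wnt10b* and *Wnt3* were wide, and these genes had uneven counts between mice. *Dkk1*, with 406 counts over all libraries, had an SE of 1.07, whereas *Wnt2*, with 379, had an SE of 0.23. The parts of depth and of spread between mice in these intervals were not tested. The 35 genes called among all tested became 619 with DESeq2, 19 with limma-voom, 57 without a filter, 1 with the neuron and Schwann cell marker covariates, and 14 to 356 when single mice were left out, with 356 without mutant 5. The 0 members called became 4 with DESeq2 and 0 to 1 when single mice were left out, and the 0 other pathway genes called became 2 with DESeq2 and 0 to 1. The number of members lower at an unadjusted p under 0.05 was 10, and it was 1 with the covariates (*Wnt3*, so 0 of the 10), 6 without mutants 1, 2 and 4 (5 of the 10), and 5 to 13 when single mice were left out. The number higher was 1, *Sfrp5*, and 1 to 2 when single mice were left out, *Sfrp5* among them each time.

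Replicate numbers are shared between genotypes in the labels, but same-numbered mice did not deviate together: correlations for numbers 1 to 6 were -0.16, 0.14, 0.27, -0.19, 0.03 and 0.23, and 2 of 6 mice correlated best with their own number. With the replicate block 131 genes were called, 115 higher and 16 lower, against 20 and 15 without it, and 0 members.

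Directions reversed for *Wnt3*, at 0.71 as reported, for *Notum*, at -0.24, and for members within 0.2 of 0. With the marker covariates the log2 fold changes were 0.081 for *Axin2*, 0.16 for *Lef1*, -0.011 for *Lgr4*, 0.059 for *Notum*, -1.62 for *Wnt3* and 0.026 for *Wnt5a*. Without mutants 1, 2 and 4 they were 0.016 for *Axin2*, 0.11 for *Rspo3*, -0.39 for *Wnt3* and 0.052 for *Wnt5a*. *Lef1* gave 0.00702 with limma-voom, 0.00309 with a mean count of at least 20 and 0.00810 with the block. *Rspo3* gave 0.00294 with upper-quartile scaling, 0.00399 with a mean count of at least 20 and 0.000291 with the block. Leaving out single mice gave -0.054 to 0.074 for *Lef1*, -0.032 to 0.061 for *Lgr5*, -0.061 to 0.047 for *Rspo3* and -0.060 to 0.032 for *Wnt5a*. The causes were not tested.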
